A study of Mus musculus with 6 samples.

Results

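The spliceosome's core proteins were examined here as targets of splicing themselves, in hepatocytes of mice on a low-fat or a high-fat diet. The genes were taken by name from the splicing tables of either diet: the Sf3a and Sf3b families, the numbered Prpf and Lsm genes, all names that begin with Snrp or Snrnp, and the U2af genes. This gave 43 of 7182 genes, with 176 of 32799 local splicing variations. A local splicing variation (LSV) is a reference exon together with every junction, and any retained intron, that leaves or enters it. PSI is the fraction of an LSV's reads that use a given junction or intron. For both diets there were values for 147 LSVs in 40 of the genes, out of 26910 LSVs in 5978 genes of the whole series.

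The series holds 6 mRNA libraries of hepatocytes from male C57BL/6J mice, 3 for each diet. All mice ate chow with 13.5% fat up to 8 weeks of age. The low-fat diet (LFD) group then received 10% fat and the high-fat diet (HFD) group 60% fat, in either case for 12 weeks. No other treatment or allele was given in the labels.

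The spliceosome is built from small nuclear ribonucleoproteins (snRNPs) that assemble anew on each intron. The U1 snRNP marks the 5′ splice site, U2AF and the U2 snRNP mark the 3′ splice site and the branch point, and the U4/U6.U5 tri-snRNP then joins and is rearranged into the active enzyme. Many genes for splicing proteins carry alternative exons that bring an early stop codon into the message, so that it is a target of nonsense-mediated decay (NMD), and such exons are known as poison exons.

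Every PSI used here is a single value per diet, pooled by the authors over the 3 libraries, and is given as the posterior mean ± posterior SD. A junction described as used at a value has that PSI. The SD covers the reads and not the animals, so no spread between mice is known, no difference between diets was tested, and the depth per library is unknown. The scale runs from 0.0125 to 0.9875, so a value near 0.013 means that almost no reads used the junction. Among the 43 entries of these genes with PSI between 0.1 and 0.9 on both diets, the median posterior SD was 0.0309 on LFD and 0.0363 on HFD, and the SD was the larger on HFD in 41 of them (95.3%). Over all genes the SD was the larger on HFD in 81.3% of such entries. Of the hepatocyte markers listed, 9 of 10 had an LSV for each diet, and of the 5 markers each of macrophages, endothelium, stellate cells and bile ducts 1 had one (Clec4f, Nrp1, Dcn and Spp1). The tables hold no expression levels, so the part of other cell types was not tested.

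Most splicing of the spliceosome genes was near the same PSI on both diets, but most of these LSVs also had little alternative use. The second entry of an LSV had a mean PSI of at least 0.1 in 24 of 147 LSVs (16.3%), beside 14.5% of all LSVs. In 27 of the 147, every entry was at the limits of the scale on both diets. A small difference in such LSVs does not show that alternative splicing was kept steady. The largest PSI difference within an LSV had a median of 0.00747 over the 147 LSVs, beside 0.00681 over all 26910, and 84 of the 147 LSVs (57.1%) differed by under 0.01, beside 54.5% of all. An LSV was called when a junction or intron differed by at least 0.2 in PSI and by more than the half-width of the 95% posterior interval of the difference. By this rule 1 of 147 LSVs (0.68%) was called, against a background of 0.624% of all LSVs. It lies in Prpf38b, so 1 of 40 genes (2.5%) was called, against 2.31% of all genes. With a lower limit of 0.1, 10 of 147 LSVs (6.8%) were called against 4.17% of all LSVs, and 6 of 40 genes (15%) against 13.4% of all genes. The 6 genes were Prpf38b, Prpf40b, Prpf4b, Snrpa1, Snrnp27 and Lsm14a, and some of the 10 LSVs share a junction or intron with one another. The counts of genes were thus near the background at both limits.

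**Figure D1:**
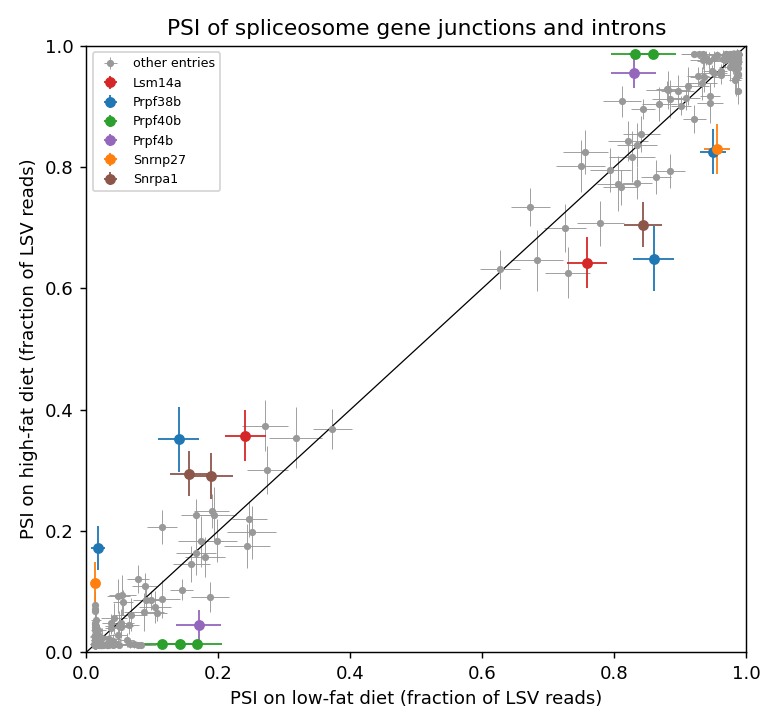
PSI on the low-fat diet (x axis) against PSI on the high-fat diet (y axis) for each junction or retained intron of the spliceosome genes with values for both diets; bars are posterior SDs of the pooled libraries. Most points lie near the diagonal. Entries past the limit of 0.1 are coloured and belong to 6 genes, with Prpf38b the farthest from the diagonal.

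The authors' deposited table of dPSI values, in which 97 LSVs with values for both diets (0.36%) are listed, holds none from the spliceosome genes. The authors' deposited table from JUM, a program that calls splicing events from junction reads, lists 470 events with a p under 0.05, of which 83 (17.7%) have an adjusted p under 0.05. It holds 3 events in these genes, in Prpf38b, Snrpa1 and Snrnp200, and 0 of the 3 passed the adjusted limit.

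By role, PSI differences were smallest in the Sm core and the minor spliceosome and largest in the remaining Prpf genes, as counted without a test. In the Sm core, 8 of 9 LSVs differed by under 0.01, and so did 4 of 4 in the minor spliceosome and 16 of 20 in the tri-snRNP. The 4 LSVs of the minor spliceosome all belong to 1 gene, Snrnp48. The main junctions of Snrnp48, and of Snrpb in the Sm core, were near the upper end of the scale on both diets. There was thus little alternative use to compare in them. The Prpf genes outside the tri-snRNP had a median largest difference of 0.0135 over 35 LSVs. Past the limit of 0.1 were 6 of these 35 LSVs, against 4.17% of all LSVs. They belong to Prpf38b, Prpf40b and Prpf4b alone, and a Prpf40b intron is counted more than once. The U2 snRNP had 2 of 14 LSVs past this limit, both with the same skipping junction of Snrpa1. The tri-snRNP had 1 of 20, the LSm genes 1 of 32, and the U1 snRNP and U2AF none.

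**Figure D2:**
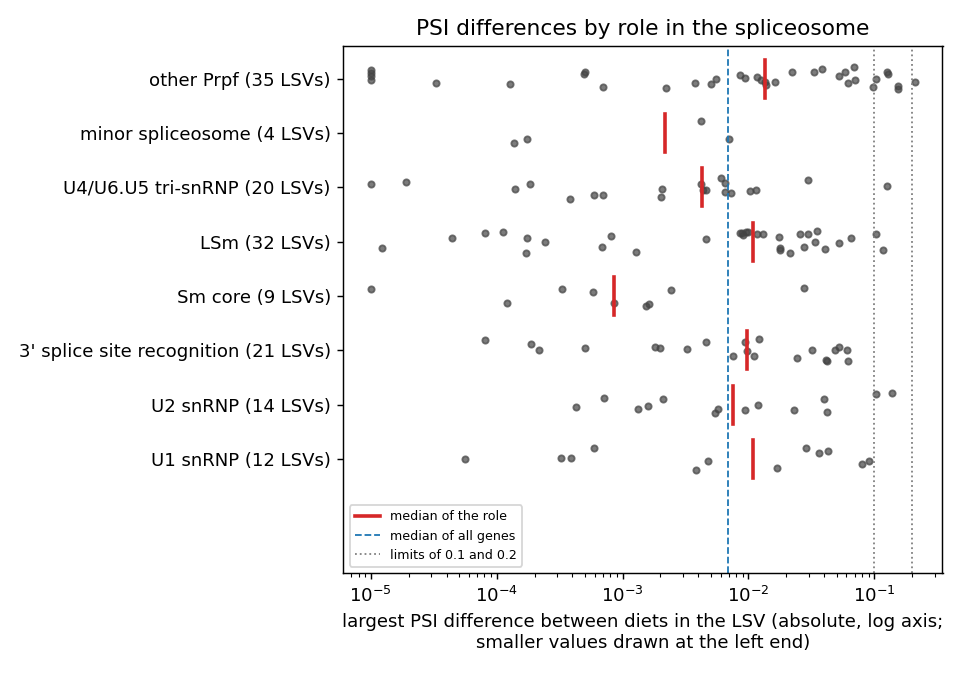
Largest absolute PSI difference between diets in each LSV (log axis), by the role of its gene; each point is 1 LSV, red bars are medians per role, the dashed line is the median over the LSVs of all genes and dotted lines mark 0.1 and 0.2. A single LSV, in Prpf38b, lies past 0.2, and the medians lie between 0.000855 for the Sm core and 0.0135 for the other Prpf genes.

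Prpf38b, a member of the PRP38 family of splicing factors, gave the largest PSI difference. Its exon at chr3:108908326-108908404 (mm10, minus strand) ends at either of a pair of 5′ splice sites 10 bases apart. In GENCODE M21 the upstream site belongs to protein-coding transcripts and the downstream site to an NMD transcript, and 10 bases shift the reading frame. The exon with its longer end is shown because the called LSV is the choice between these sites, and the capitals mark the 10 bases past the upstream site.
Prpf38b exon with the longer end: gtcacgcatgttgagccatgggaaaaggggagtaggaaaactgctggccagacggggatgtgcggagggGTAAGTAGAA
The capitals start with GTAAGT, which are the intron's first letters when the upstream site is used. The upstream site was used at 0.860 ± 0.031 on LFD and at 0.649 ± 0.053 on HFD. The downstream site, with the frameshift, had 0.140 on LFD and 0.351 on HFD. The difference of 0.211 had a 95% posterior half-width of 0.121, and the call is lost when posterior SDs under 0.05 are required on both diets. The authors' deposited JUM table lists the same pair of sites (change 0.240, unadjusted p = 0.0317, adjusted p = 0.333).

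Another Prpf38b exon differed in the junction at one of its ends alone. An exon of 53 bases at chr3:108910343-108910395, upstream of the exon above, is annotated in NMD transcripts only. Its first bases are shown since they hold the stop codon of the NMD transcript, in capitals, followed by 10 bases.
Prpf38b poison exon, start: gatTGActcagtcttg
Measured from the exon before it, the junction into the 53-base exon was used at 0.018 ± 0.011 on LFD and at 0.172 ± 0.037 on HFD. Measured at the exon after it, the junction out of the exon had 0.166 ± 0.031 on LFD and 0.164 ± 0.036 on HFD. The first pair of values is far apart and the second pair overlaps, so the ends of the same exon do not give 1 inclusion level. A further NMD exon of Prpf38b, of 71 bases, had 0.083 on LFD and 0.013 on HFD at its junction from the exon before it, and 0.197 and 0.184 at its other end.

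Prpf40b is a relative of a yeast protein that binds the U1 snRNP. In Prpf40b a short intron of 94 bases, at chr15:99316149-99316242, was retained in part on LFD. Its PSI was 0.168 ± 0.037 on LFD and 0.014 ± 0.006 on HFD in the LSV of the exon after it, and 0.142 ± 0.036 and 0.014 ± 0.006 in the LSV of the exon before it. Both ends show the intron present on LFD and at the lower end of the scale on HFD, though the same intron is counted in both LSVs. The next exon of Prpf40b used an internal 5′ splice site, not annotated in GENCODE M21, at 0.115 ± 0.032 on LFD and 0.013 ± 0.005 on HFD.

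Prpf4b is a kinase that phosphorylates spliceosome proteins, and it carries a pair of NMD exons with values at both ends. The exon of 141 bases, at chr13:34899315-34899455 on the plus strand, is shown up to 10 bases past the stop codon of its NMD transcript, which is in capitals, because it gave the gene's largest PSI difference.
Prpf4b poison exon, start: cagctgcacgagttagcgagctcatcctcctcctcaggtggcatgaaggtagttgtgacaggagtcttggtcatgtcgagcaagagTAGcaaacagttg
The junction out of this exon was used at 0.170 ± 0.034 on LFD and at 0.045 ± 0.024 on HFD. The junction into it had 0.173 ± 0.035 on LFD and 0.183 ± 0.042 on HFD, and these values overlap. The other NMD exon, of 106 bases, had the same form: 0.188 ± 0.029 on LFD and 0.091 ± 0.025 on HFD going out, but 0.159 ± 0.028 and 0.145 ± 0.030 going in. In both exons the low HFD value is thus seen from the downstream end only. A further NMD junction of Prpf4b, near its 3′ end, had 0.247 ± 0.027 on LFD and 0.220 ± 0.029 on HFD.

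Prpf39, a U1-associated protein, had an NMD exon quantified on HFD alone. This exon of 100 bases, at chr12:65055434-65055533, had a PSI of 0.198 ± 0.051 going in and 0.419 ± 0.048 going out, and the introns on either side of it were retained at 0.104 ± 0.039 to 0.308 ± 0.056, depending on the LSV. No LFD value stands beside these.

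**Figure D3:**
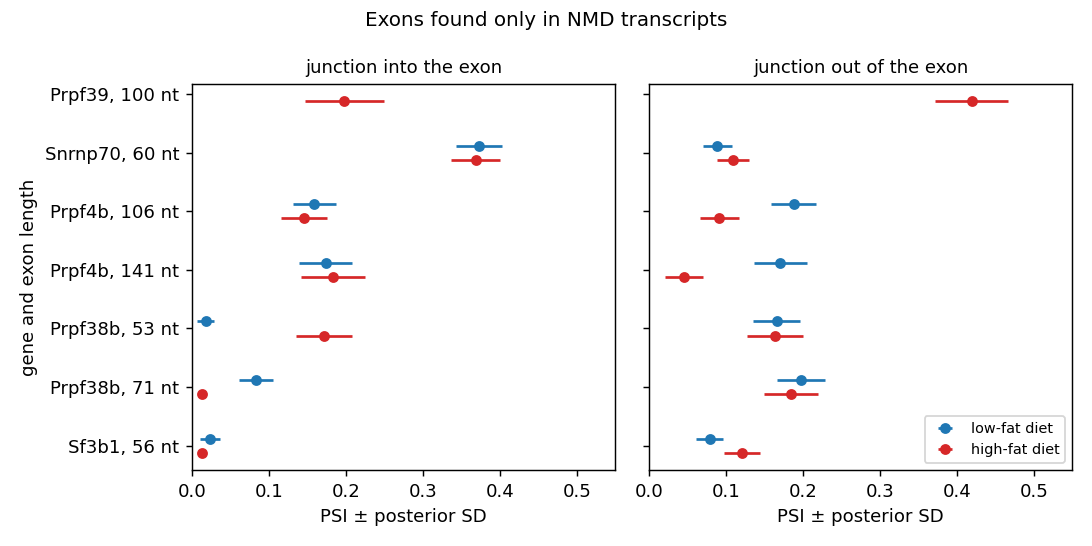
PSI ± posterior SD of the junctions into (left) and out of (right) exons annotated only in NMD transcripts, on the low-fat (blue) and high-fat (red) diets; Prpf39 has no low-fat value. The 53-base Prpf38b exon differs between diets at the left end only and both Prpf4b exons at the right end only.

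Snrpa1 encodes a U2 snRNP protein that, with its partner Snrpb2, binds a stem-loop of U2 snRNA. Its coding exon of 80 bases at chr7:66070119-66070198 (plus strand) is skipped in an NMD transcript, and 80 bases are not a multiple of 3. The exon is printed in capitals between 15 bases of each neighbouring exon, because its skipping differed at both ends.
Snrpa1 cassette exon: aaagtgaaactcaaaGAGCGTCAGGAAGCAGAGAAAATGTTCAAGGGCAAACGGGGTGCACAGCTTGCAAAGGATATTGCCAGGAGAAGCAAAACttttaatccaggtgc
The junction that skips this exon was used at 0.156 ± 0.028 on LFD and at 0.295 ± 0.037 on HFD from the exon before it. At the exon after it, the same junction had 0.188 ± 0.034 on LFD and 0.291 ± 0.037 on HFD. Skipping was the higher on HFD by 0.139 with a 95% posterior half-width of 0.092 at the first end and by 0.102 with 0.099 at the second. The same junction is counted at both ends, so these values are not independent. The junction out of the exon had 0.779 ± 0.036 on LFD and 0.707 ± 0.037 on HFD, a difference within its half-width of 0.102. The authors' deposited JUM table gives -0.0926 as the change of this cassette exon (adjusted p = 0.307).

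The other U2 snRNP genes with values for both diets differed by less. Sf3b1, the SF3B subunit at the branch point, has an NMD exon of 56 bases with PSI 0.078 ± 0.017 on LFD and 0.121 ± 0.023 on HFD going out, and 0.023 and 0.013 going in. These signs are opposite, and the first difference of 0.042 is within its half-width of 0.057. Sf3b2 chose between 3′ splice sites 3 bases apart, and the minor site had 0.055 ± 0.020 on LFD and 0.094 ± 0.033 on HFD. Sf3a2 retained an intron of 73 bases at 0.067 ± 0.024 on LFD and 0.062 ± 0.027 on HFD. Sf3b3 had LSVs on LFD only.

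U2AF is the dimer that reads the 3′ splice site, with U2af1 on the AG and U2af2 on the pyrimidine tract. U2af1 has a pair of alternative coding exons of 67 bases each, upstream at chr17:31652502-31652568 and downstream at chr17:31651646-31651712 (minus strand). They are printed because the choice between them is the main splicing event of this gene, and the capitals mark the 23 positions of 67 at which they differ, so that 65.7% of bases are the same.
U2af1 upstream exon: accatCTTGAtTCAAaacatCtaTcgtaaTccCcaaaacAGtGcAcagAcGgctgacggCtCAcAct
U2af1 downstream exon: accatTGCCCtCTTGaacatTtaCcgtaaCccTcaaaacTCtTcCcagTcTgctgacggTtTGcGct
Joined to the exon before them, the downstream exon was used at 0.843 ± 0.019 on LFD and at 0.896 ± 0.017 on HFD, and the upstream exon 0.144 ± 0.018 and 0.103 ± 0.017. Joined to the exon after them, the downstream exon had 0.880 ± 0.016 on LFD and 0.928 ± 0.014 on HFD, and the upstream exon 0.107 ± 0.016 and 0.065 ± 0.013. The junction that joins both exons in 1 message, annotated as an NMD form, had 0.061 ± 0.011 on LFD and 0.020 ± 0.012 on HFD at the downstream exon. Among reads that leave the less used upstream exon, it had 0.355 ± 0.045 on LFD, with no HFD value. The downstream exon was the main form on both diets, with a PSI higher on HFD by 0.053 (half-width 0.049) at the first end and by 0.049 (half-width 0.042) at the second. All of these differences are below the limit of 0.1.

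U2af2 has a longer form of its exon at chr7:5075141-5075239 (plus strand) that adds 12 bases and so keeps the frame. Both of its forms are coding, and it is printed beside the Prpf38b exon because the layout is the same, with the added bases in capitals.
U2af2 exon with the longer end: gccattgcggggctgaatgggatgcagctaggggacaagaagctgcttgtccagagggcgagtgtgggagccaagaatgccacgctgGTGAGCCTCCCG
The longer form was used at 0.166 ± 0.022 on LFD and at 0.226 ± 0.027 on HFD. This difference of 0.060 is within its half-width of 0.068. U2af1l4, a paralogue of U2af1, retained an intron of 71 bases at 0.013 on LFD and 0.071 ± 0.022 on HFD at one end, but at 0.013 and 0.019 ± 0.012 at the other. Another U2af1l4 intron, at chr7:30564395-30564473, went the other way. It had 0.040 on LFD and 0.013 on HFD at one end, and 0.050 and 0.013 at the other. The U2af1l4 entry for an intron of 54 bases, at 0.987 on LFD and 0.985 on HFD, lies inside an annotated coding exon.

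The U1 snRNP protein genes had no LSV past the limit of 0.1. Snrnp70, which binds the first stem-loop of U1 snRNA, held the most evenly divided LSV among those with values for both diets and posterior SDs under 0.05. Its NMD exon of 60 bases at chr7:45383125-45383184 (minus strand) is shown up to 10 bases past its stop codon in capitals.
Snrnp70 poison exon, start: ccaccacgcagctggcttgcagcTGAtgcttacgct
The junction into this exon was used at 0.373 ± 0.030 on LFD and at 0.368 ± 0.032 on HFD, and the junction out of it 0.088 ± 0.019 and 0.109 ± 0.021. The diets overlap at both ends, while the ends differ from each other on both diets. A longer noncoding exon starts at the same splice site as the 60-base exon and continues past its end, so that the junction into it is shared. The junction out of the longer exon had 0.048 ± 0.014 on LFD and 0.028 ± 0.014 on HFD. Each junction out was thus well below the shared junction in, on both diets. The cause of the difference between the ends was not tested. An exon of 80 bases in the 5′ untranslated region of Snrnp70 had 0.115 ± 0.022 on LFD and 0.206 ± 0.028 on HFD going in, and 0.190 ± 0.027 and 0.233 ± 0.029 going out. The difference going in, of 0.091, is past its half-width of 0.070. Going out, the difference of 0.043 is within its half-width of 0.077. Snrpa, another protein bound to U1 snRNA, chose between 5′ splice sites 3 bases apart before its coding region, with 0.317 ± 0.040 and 0.354 ± 0.051 for the minor site. Snrpc had 1 LSV, with a difference of 0.000387 in size.

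In the tri-snRNP the largest difference was in Snrnp27, a small protein of that particle. Its main junction was used at 0.955 ± 0.020 on LFD and at 0.830 ± 0.041 on HFD. A 5′ splice site not annotated in GENCODE M21 was at the lower end of the scale on LFD, at 0.013 ± 0.002, and at 0.114 ± 0.035 on HFD. The site of a noncoding transcript had 0.042 ± 0.019 on LFD and 0.056 ± 0.026 on HFD, and these values overlap. Snrnp200, the helicase that unwinds U4 from U6, retained an intron of 97 bases at 0.044 ± 0.014 on LFD and 0.014 ± 0.006 on HFD at one end, and at 0.037 ± 0.013 and 0.048 ± 0.015 at the other. The authors' deposited JUM table lists another Snrnp200 intron, of 78 bases by its match in GENCODE M21, where the change was 0.0671 (adjusted p = 0.373). Prpf8, the scaffold of the catalytic centre, differed by at most 0.00606 over 4 LSVs, and Prpf6 by at most 0.0115 over 8.

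The LSm genes of this list include subunits of the ring on U6 snRNA, subunits of related rings such as Lsm1 and Lsm10, and proteins with an LSm domain outside these rings. Lsm14a, a cytoplasmic RNA-granule protein of the last kind, gave their largest difference, in a coding exon of 177 bases at chr7:34357766-34357942 (minus strand) that keeps the frame. The exon is printed in capitals between 15 bases of each neighbour because it was skipped in a large share of messages.
Lsm14a cassette exon: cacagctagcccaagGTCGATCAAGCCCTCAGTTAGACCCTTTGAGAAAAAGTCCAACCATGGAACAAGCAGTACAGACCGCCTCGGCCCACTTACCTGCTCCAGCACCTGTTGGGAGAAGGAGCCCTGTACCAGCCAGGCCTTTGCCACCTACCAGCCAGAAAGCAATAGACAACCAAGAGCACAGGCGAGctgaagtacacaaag
The skipping junction was used at 0.241 ± 0.031 on LFD and at 0.357 ± 0.042 on HFD at the exon before it, and 0.270 ± 0.034 and 0.374 ± 0.042 at the exon after it. It was the higher on HFD at both ends, by 0.116 with a half-width of 0.102 and by 0.103 with 0.106, so that the second is within its half-width. The same junction is counted at both ends, so these values are not independent. In the LSV of the exon itself, the junction into it was used at 0.987 on LFD and at 0.952 ± 0.022 on HFD, a difference within its half-width of 0.043. In its paralogue Lsm14b, a coding exon of 78 bases was skipped at 0.251 ± 0.037 on LFD and 0.198 ± 0.044 on HFD. In Lsm6, a subunit of the ring on U6, a 5′ untranslated exon was skipped at 0.275 ± 0.032 on LFD and 0.3004 ± 0.040 on HFD, measured at the exon after it. At the exon before it the same junction had 0.519 ± 0.047 on LFD and no HFD value, so the ends do not give 1 level of skipping. Lsm1, Lsm4 and Lsm12 differed by less than 0.01 in each LSV.

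**Figure D4:**
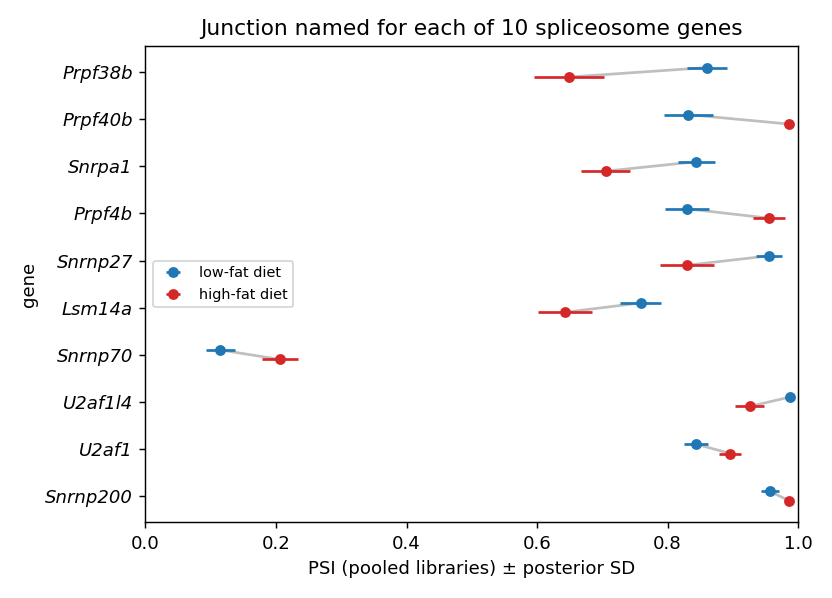
PSI ± posterior SD on the low-fat (blue) and high-fat (red) diets at the junction named for each of 10 spliceosome genes, ordered by the size of the difference from Prpf38b at the top to Snrnp200. The high-fat value is the lower for Prpf38b, Snrpa1, Snrnp27, Lsm14a and U2af1l4 and the higher for the other 5 genes.

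The Sm core proteins form the ring on each spliceosomal snRNA. Snrpb differed by at most 0.0024 and Snrpe by at most 0.000855. The largest difference was in Snrpd1, whose main junction was used at 0.945 ± 0.015 on LFD and at 0.917 ± 0.021 on HFD. The entries named Snrpn carry a gene identifier that GENCODE M21 gives to Gm38393, so they cannot be read as Snrpn alone, and they differed by at most 0.00154. In the minor spliceosome, which removes a rare class of introns, only Snrnp48 had values for both diets. Its largest difference was at a junction not annotated in GENCODE M21, with 0.020 ± 0.013 on LFD and 0.013 ± 0.005 on HFD.

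Junctions annotated only in NMD transcripts were present in 35 of the 147 LSVs (23.8%), against 11% of all LSVs, which is a description without a test. A spliced junction not in GENCODE M21 was present in 27.2%, against 45.8% of all LSVs, and a retained intron in 19.7% against 25.4%. Of the 38 entries on NMD-only junctions, 19 were higher and 13 lower on HFD by more than 0.0001, with a median difference of 0.000101. Over all genes, 1404 of 3196 such entries were higher and 892 lower on HFD by the same limit.

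Where a junction or intron belongs to an LSV at each of its ends, PSI can be compared between the ends. Its own reads enter both values, so the ends are not independent. There were 79 such pairs in these genes. In 14 of them at least 1 end differed by 0.05 or more between diets, with the same sign at both ends in 11 and opposite signs in 3. In 5 of the 14 both ends differed by 0.05 or more with the same sign.

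Of the 172 LSVs quantified on LFD, 25 (14.5%) had no HFD value, and of the 151 on HFD, 4 (2.65%) had no LFD value, beside 16.6% and 1.94% over all genes. Fewer reads, fewer cells and less RNA per cell cannot be told apart here as reasons for a missing value. Values on HFD were also the less precise over all genes, with a median posterior SD of 0.0321 beside 0.0286 on LFD for entries with PSI between 0.1 and 0.9. The part of read coverage was not tested. The genes Sf3b3, Snrnp35 and Lsm10 had values on LFD only. The 4 LSVs quantified on HFD only were 3 of Prpf39 and 1 of U2af2, and each includes a retained intron, which in U2af2 is an intron of 83 bases in the untranslated region at a PSI of 0.987. Of the 57 protein-coding genes in GENCODE M21 that share these names, 14 had no LSV on either diet, among them Sf3a3, Sf3b4, Sf3b5, Sf3b6, Snrpd2, Snrpd3, Snrpf and Snrpg.

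Other spliceosome genes, from a list of 105 outside these names, gave 219 LSVs in 64 genes with values for both diets. By the limit of 0.2, 1 gene was called, Rbm25, a U1-associated factor, at 0.259 ± 0.041 on LFD and 0.485 ± 0.050 on HFD. This is 1.56% of the 64 genes, against 2.31% of all genes. By the limit of 0.1, 9 of the 64 genes (14.1%) were called, near the 13.4% of all genes: Acin1, Bcas2, Cdc40, Ddx46, Gemin7, Luc7l2, Rbm25, Smndc1 and Txnl4a. The authors' deposited dPSI table, with 0.36% of all LSVs, lists Cdc40, a step 2 factor, and Luc7l2, a U1-associated factor. Their junctions in the PSI tables had 0.834 ± 0.033 and 0.685 ± 0.045 for Cdc40, and 0.599 ± 0.042 and 0.424 ± 0.049 for Luc7l2, on LFD and HFD. The median largest difference over these 219 LSVs was 0.0169, which is above the 0.00747 of the core proteins, and this was not tested.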

How the data were processed

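Hepatocyte mRNA of 6 libraries was sequenced as paired ends. Per the submitters' processing notes, FastQC and STAR were used with the mm10 build; their versions are not stated. The authors deposited, per the file headers, MAJIQ/voila tables of PSI (a fraction) with its posterior variance, 1 pooled value per diet, a dPSI table from a separate run, and a JUM table of events with p-values, adjusted p-values and changes in PSI. The JUM table's title names "NC livers", but the heading of its changes, HFD minus LFD, was followed.

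LSVs were matched between diets by identifier and compared with Python 3.11.15. Junctions, exons and sequences were matched to GENCODE M21 (GRCm38, which is mm10); JUM coordinates were matched within 2 bases. Sequences come from GENCODE M21 transcripts, since no genome was used here.

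The members and gene lists were chosen with earlier results of these data known. Genes were named when called, listed by JUM, largest in difference with posterior SD under 0.05, most evenly divided, highest in intron retention, or largest in a role left without a name; only 8 genes met the size criterion, for which 12 were planned, and 1 of them is not reported here. Prpf39, Sf3b1, Sf3b2, Snrpa, Snrpc, Snrpb, Snrpe, Snrpn, U2af2, Prpf6, Prpf8, Lsm1, Lsm4 and Lsm12, and the exons printed for Prpf4b, U2af1 and U2af2, were added after their values were seen.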

Additional observations from a re-analysis of the deposited data

How the results depend on the processing

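No table used here gives values per library, so leaving out libraries was not run, and each PSI difference is known with the error of its reads only. No paired analysis was possible because the libraries of a diet are pooled into 1 value per junction. The count of 1 LSV and 1 gene (Prpf38b) past the limit of 0.2 was the same with a 99% in place of a 95% posterior interval. It was also the same with no condition on the variance, which could only add calls. Spliced junctions only, and junctions of both ends counted once, gave the same count as well. The called junctions are spliced and in 1 LSV only, so these settings could not remove the call. The count was 0 LSVs and 0 genes with a limit of 0.3, and 10 LSVs and 6 genes with a limit of 0.1. It was also 0 with posterior SDs under 0.05, since the SD of Prpf38b on HFD is above that. No LSV of these genes was in the authors' deposited dPSI table, so stricter limits on that table could only give 0 and tell nothing more. The authors' deposited JUM table gives 3 events when every event is taken. As 0 of them have an adjusted p under 0.05, the limit of 0.01 could only give 0 as well. The median largest difference was 0.00721 with posterior SDs under 0.05 and 0.00747 with spliced junctions only. Of the 29 LSVs quantified on 1 diet, 19 remained when LSVs with a retained intron were left out, a setting chosen after seeing the data. All 19 were on LFD. Also chosen after seeing the data was the value of a named junction at its other end, which 6 genes have. It differed from the named value by less than that value's half-width in Prpf40b (0.128 beside 0.155), U2af1 (0.0409 beside 0.0527) and Lsm14a, where it was nonetheless far smaller (-0.0351 beside -0.116), and by more in Prpf4b (-0.00934), Snrnp200 (-0.0103) and U2af1l4 (-0.0097). The cause was not tested.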
